A study of Mus musculus with 6 samples.

Results

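Genes for adhesion and extracellular matrix were examined in group 2 innate lymphoid cells (ILC2s) of the mouse lung that did or did not produce IL-10. The set comprised the protein-coding rows of the deposited count table named as cadherins (Cdh), matrix metalloproteases (Mmp), their tissue inhibitors (Timp), ADAM and ADAMTS proteases, laminin chains (Lama, Lamb, Lamc) or collagen chains (Col), together with Stab1, Stab2, Fn1 and Spp1. Membership followed from the gene's name, with no measured value in the rule, although the set was chosen with earlier results of these data known. By this rule 98 of 14553 protein-coding genes (21017 genes in all) were members. Of these, 27 were collagen chains, 18 MMPs, 17 ADAMs, 12 ADAMTS proteases, 9 cadherins, 8 laminin chains, 3 TIMPs and 4 single genes. Col4a3bp, whose name begins like a collagen's, encodes a ceramide transfer protein and was not counted.

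Both populations came from lungs of C57BL/6J mice, 8 weeks old, that carried the IL-10GFP reporter allele and had been given recombinant IL-33 through the nose in 3 doses of 0.5 µg. Their sorted ILC2s were kept for 48 h in IL-2, IL-7 and IL-4 (10 ng/mL of each) and then sorted again by reporter signal, IL-10-producing cells being kept apart from the IL-10-negative ones, although the cell type label of every sample reads freshly sorted. There were 3 libraries a population. Whether each library stands for its own mouse or culture is not stated in the labels; the p-values therefore reflect library-to-library spread alone, which may be technical.

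Cadherins are calcium-dependent adhesion receptors that bind cells to one another and to the actin skeleton through catenins. Collagens, laminins and fibronectin build the matrix, which MMPs and ADAMTS proteases cut and TIMPs protect. ADAMs are membrane proteases that mostly shed the outer parts of surface proteins such as cytokines and their receptors. Lymphocytes are not known as major producers of structural matrix, which is laid down mainly by fibroblasts, epithelium and endothelium, but they carry several of these proteases at their surface.

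Several genes of the metalloprotease cluster on chromosome 9 had the letters TGANTCA (N is any base), the core to which AP-1 factors bind, within 250 bases upstream of an annotated start. They are shown because Mmp12 and Mmp10, which are described further on, lie in this cluster. The windows at the upstream start of Mmp12, at Mmp8 and at a further, downstream start of Mmp7 did not hold these letters. The sequences are from RefSeq on GRCm38.p6, plus strand, 5′ to 3′. They end at the base before the start and lie at chr9:7347124-7347373 for Mmp12 (the downstream of its 2 annotated starts), chr9:7502092-7502341 for Mmp10, chr9:7272264-7272513 for Mmp13 and chr9:7691840-7692089 for Mmp7. Capitals mark TGANTCA and also TATAAA (the TATA box) and AGGAAG (an ETS core), each searched on both strands; the marked matches do not overlap.
Mmp12: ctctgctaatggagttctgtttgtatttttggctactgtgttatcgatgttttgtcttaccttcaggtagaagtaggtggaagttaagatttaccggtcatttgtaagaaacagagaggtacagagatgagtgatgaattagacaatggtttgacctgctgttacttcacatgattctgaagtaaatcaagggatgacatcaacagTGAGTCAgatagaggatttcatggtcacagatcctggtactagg
Mmp10: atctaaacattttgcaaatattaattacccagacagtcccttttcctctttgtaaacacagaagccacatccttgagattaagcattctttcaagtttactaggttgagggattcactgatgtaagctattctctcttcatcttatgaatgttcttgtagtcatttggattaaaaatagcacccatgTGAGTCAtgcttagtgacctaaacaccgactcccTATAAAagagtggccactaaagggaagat
Mmp13: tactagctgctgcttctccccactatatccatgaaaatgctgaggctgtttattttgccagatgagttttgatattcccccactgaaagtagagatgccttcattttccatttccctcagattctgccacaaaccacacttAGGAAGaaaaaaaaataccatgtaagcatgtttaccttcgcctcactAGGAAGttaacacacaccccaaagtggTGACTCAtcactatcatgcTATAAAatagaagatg
Mmp7: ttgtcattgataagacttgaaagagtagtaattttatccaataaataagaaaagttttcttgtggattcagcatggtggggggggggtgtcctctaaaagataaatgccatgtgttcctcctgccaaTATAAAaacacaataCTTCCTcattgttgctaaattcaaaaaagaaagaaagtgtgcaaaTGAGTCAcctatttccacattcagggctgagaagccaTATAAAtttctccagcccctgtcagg

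The AP-1 core began 44 bases before the start in Mmp12, 63 bases before it in Mmp10 and Mmp7, and 35 bases before it in Mmp13. Windows of the same length held it in 6.75% of 32851 promoters, and in 6 of 75 (8%) promoters of the members (66 members had an entry). The others were those of Adam19 and Col6a1. TATAAA was found in 12.4% of all promoters and in 9 of 75 (12%) of the members' promoters. AGGAAG was found in 29.5% of all promoters and in 30 of 75 (40%) of the members'. A match is a description of the letters and not evidence of a bound factor.

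Library totals ran from 47012941 to 69511433 counts, and no library stood apart. Il10, on whose reporter the cells were sorted, stood between 840 and 854 CPM (counts scaled to library size with TMM factors, so that libraries can be compared) in the IL-10-producing and between 13.0 and 14.2 CPM in the IL-10-negative libraries, as the labels state. The ILC2 identity genes Gata3, Il1rl1, Il7r and the others of a list of 12 were all measured above 1 CPM. By the test described below, 4 of them were higher in IL-10-producing cells (Il2ra, Arg1, Klrg1 and Il5). Another 5 were lower (Gata3, Il1rl1, Icos, Rora and Il13), beside 17.1% higher and 18.6% lower of all genes. In the IL-10-producing libraries the T-cell list was reduced, with a summed level of 193 to 194 against 275 to 283 CPM (12 of 14 lower, 2 higher), and so was the list of granulocyte, basophil and mast cell genes, with 12.7 to 14.9 against 98.5 to 104 CPM (11 of 12 tested lower). In bulk RNA, fewer cells of a type and less RNA per cell cannot be told apart.

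Of the 98 members, 60 passed the filter on low counts and were tested. With edgeR's quasi-likelihood test and p-values adjusted over all 16654 genes tested, 10 members had a higher and 12 a lower level in IL-10-producing cells, and 38 did not pass the threshold of 0.05. This is 36.7% of those tested, beside 35.7% of all genes. By direction it is 16.7% higher and 20% lower, beside 17.1% and 18.6% of all genes. The share of members called was thus near the background. Called with a change of at least 2-fold were 3 members (Mmp12, Cdh17 and Cdh1), beside 3.66% of all genes. The median log2 fold change of the tested members was -0.03 (all genes: -0.00384). Without a TMM factor, 8 members were higher and 14 lower, and the share of higher genes among all calls went from 47.8% to 36.8%.

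Most members were hardly expressed. In the higher group, 66 of 98 stayed under 1 CPM, 14 stood between 1 and 5 CPM and 18 reached 5 CPM or more. Per kilobase of exon, the scale on which genes can be compared, Adam8 (101 CPM per kb) and Adam19 (100 CPM per kb) were highest in IL-10-producing cells, followed by Adam10 (36.9), Stab2 (34.9), Adam15 (26.5), Col18a1 (21.3) and Lamc1 (19.4). In IL-10-negative cells Stab2, at 65.2 CPM per kb, came directly after Adam8 (96.0) and Adam19 (85.1). The plot of levels by library shows the 27 genes chosen for naming.

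**Figure D1:**
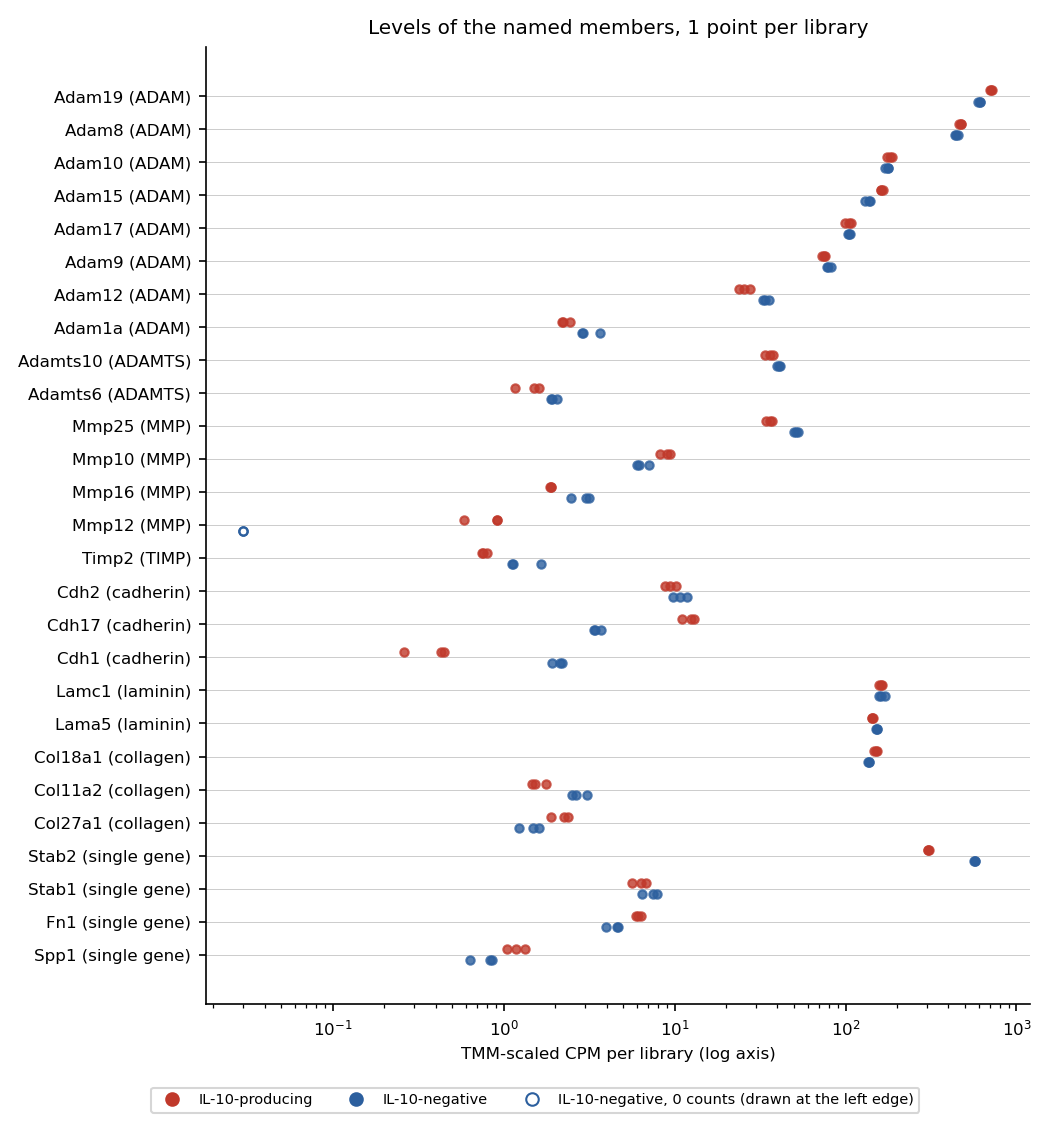
TMM-scaled CPM on a log axis for the 27 named members, with 1 point for each of 3 IL-10-producing (red) and 3 IL-10-negative (blue) libraries. Open circles at the left mark 0 counts, which Mmp12 had in every IL-10-negative library; the points of Stab2 (303 to 309 against 567 to 575 CPM) lie far apart compared with their spread.

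Among the members at 100 CPM or more, Stab2 showed the largest fold difference. It encodes stabilin-2, a scavenger receptor that takes up hyaluronan and is known from the sinusoidal endothelium of liver, spleen and lymph node (ENSMUSG00000035459.18, chromosome 10, 86841198 to 87008025, minus strand). IL-10-producing replicates 1, 2 and 3 held 303, 304 and 309 CPM, and IL-10-negative replicates 571, 567 and 575 CPM. The groups did not overlap and each was narrow. The mean was 306 ± 3.15 against 571 ± 4.03 CPM (SD, n = 3), 1.87-fold lower in IL-10-producing cells (log2 fold change -0.90, SE 0.0186, edgeR adjusted p = 7.26e-22). Of the endothelial list, 7 of 11 markers have a row and 6 were tested, of which 2 rose and 0 fell. Those that rose were Pecam1, at 106 against 86.6 CPM, and Egfl7, at 4.30 against 2.70 CPM (IL-10-producing libraries first). Esam stood at 2.04 against 1.71 CPM, Ramp2 at 0.529 against 0.333 CPM and Prox1 at 0.538 against 0.847 CPM. None of these passed, nor did Vwf, at 0.249 against 0.250 CPM. Tie1 was below the filter, at 0.0540 against 0.224 CPM. Without Pecam1, which lymphocytes can also express and which was set aside after its values were seen, the list summed to 7.56 to 7.88 against 5.71 to 6.57 CPM. Its relative Stab1, a scavenger receptor of macrophages and endothelium, did not pass, at 6.26 ± 0.598 against 7.28 ± 0.711 CPM (edgeR adjusted p = 0.0709). Stab1 passed as lower without IL-10-producing replicate 1 (adjusted p = 0.0421), without IL-10-negative replicate 1 (0.0227) and without a TMM factor (0.0415).

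The other single genes are secreted ligands of integrins. Fn1, which encodes fibronectin, was 1.38-fold higher in IL-10-producing cells, with 6.38, 5.94 and 6.07 CPM against 4.63, 3.98 and 4.67 CPM (log2 fold change 0.47, SE 0.10, edgeR adjusted p = 0.000529). Every IL-10-producing library lay above every IL-10-negative one. Spp1, which encodes osteopontin, stood at 1.18 ± 0.143 against 0.775 ± 0.120 CPM, with an edgeR adjusted p of 0.0495. That call was lost when any single library was left out (adjusted p from 0.0514 to 0.175), in DESeq2 (0.108), in limma-voom (0.0547) and without a TMM factor (0.0615). With the replicate number as a block it was 0.0545. An unnamed gene model on the same strand shares 18.8% of the exon bases of Spp1, so reads could be split between them.

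Among the tested and called members, Cdh1 and Cdh17 had the largest fold changes after Mmp12, in opposite directions. Of 9 cadherins, 6 were tested, 1 was higher, 1 was lower and 4 did not pass (all genes: 17.1% higher, 18.6% lower). Cdh17, a cadherin of the intestinal lining also called LI-cadherin (ENSMUSG00000028217.11, chromosome 4, 11758147 to 11817895), held 11, 12.5 and 12.9 CPM in IL-10-producing and 3.40, 3.41 and 3.73 CPM in IL-10-negative libraries. It was 3.46-fold higher (log2 fold change 1.79, SE 0.0898, edgeR adjusted p = 2.9e-14), and per kilobase of exon it rose from 0.785 to 2.72 CPM. Of 13 epithelial markers, 7 have a row and 4 were tested, of which 0 rose and 2 fell, namely Epcam (14.9 against 19.3 CPM) and Cdh1 itself. Krt18, at 2.89 against 2.32 CPM, and Ager, at 1.94 against 2.19 CPM, did not pass. Krt8 (0.149 against 0.0178 CPM), Krt19 (0.0576 against 0 CPM) and Sftpb (0.0525 against 0.0118 CPM) were below the filter. The epithelial list summed to 20.2 to 20.7 against 25.5 to 26.3 CPM, and to 5.30 to 5.60 against 6.37 to 7.05 CPM without Epcam. Without Epcam and Cdh1, a choice made after their values were seen, it summed to 4.85 to 5.22 against 4.23 to 4.85 CPM.

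Cdh1 encodes E-cadherin, the adhesion receptor of epithelia and of some leukocytes (ENSMUSG00000000303.12, chromosome 8, 106603351 to 106670246). It held 0.446, 0.263 and 0.428 CPM in IL-10-producing and 2.20, 2.13 and 1.92 CPM in IL-10-negative libraries, or 24, 18 and 20 against 114, 125 and 108 counts. The groups lay far apart, with a 5.59-fold lower level in IL-10-producing cells (log2 fold change -2.48, SE 0.244, edgeR adjusted p = 7.72e-09). The T-cell list and the granulocyte, basophil and mast cell list also fell there (median log2 fold changes -2.69 and -2.58), and their part in this difference was not tested. Cdh2, N-cadherin, did not pass, at 9.47 ± 0.688 against 10.8 ± 1.00 CPM (edgeR adjusted p = 0.0846), but passed as lower without IL-10-producing replicate 2 (0.0453), without IL-10-negative replicate 3 (0.0282) and without a TMM factor (0.0429). Cdh24, Cdh10 and Cdh11 stood at 3.35 against 3.76, 1.04 against 1.29 and 0.10 against 0.237 CPM and did not pass.

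The proteins that tie cadherins to actin were measured as a list of 9, of which 6 were tested. In this list 2 were higher and 1 was lower (33.3% and 16.7%, beside 17.1% and 18.6% of all genes; median log2 fold change -0.02; 2 were lower without a TMM factor). Jup, plakoglobin, rose from 56.9 ± 0.418 to 69.8 ± 3.66 CPM (edgeR adjusted p = 2.13e-07), and Ctnnd1, the p120 catenin that stabilises cadherins at the membrane, from 13.5 ± 0.827 to 16.9 ± 0.561 CPM (edgeR adjusted p = 0.000142). Vcl, vinculin, fell from 21.1 ± 1.08 to 14.4 ± 0.0806 CPM (edgeR adjusted p = 1.63e-08).

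ADAM genes made up most of the summed level of the set, with 1734 ± 16.3 of 2641 ± 16 CPM in IL-10-producing and 1585 ± 6.95 of 2769 ± 14.7 CPM in IL-10-negative libraries. Of 17 ADAMs, 12 were tested, 3 were higher, 3 were lower and 6 did not pass (all genes: 17.1% higher, 18.6% lower). The 3 that rose are Adam19, Adam15 and Adam8, and the 3 that fell are Adam12, Adam9 and Adam1a. Adam19, an active protease first described in dendritic cells and developing muscle (ENSMUSG00000011256.16, chromosome 11, 46055992 to 46147343), held 710, 724 and 701 CPM against 594, 611 and 612 CPM. Its groups did not overlap, and it was 1.18-fold higher (log2 fold change 0.23, SE 0.0187, edgeR adjusted p = 2.11e-10). Adam15, which has an integrin-binding disintegrin domain (chromosome 3, 89338542 to 89349996), held 162, 165 and 161 CPM against 137, 130 and 138 CPM, 1.21-fold higher (edgeR adjusted p = 3.72e-09). A gene on the opposite strand shares 20.6% of its exon bases, and whether the counting used strand is not given in the sources used here. Adam8, a protease of myeloid cells and lymphocytes, rose by 0.08 on the log2 scale, from 445 ± 8.34 to 470 ± 7.40 CPM (edgeR adjusted p = 0.0025), a call lost without a TMM factor (0.0524).

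The main sheddases of leukocytes differed little. Adam10, which cleaves Notch receptors and many adhesion molecules, held 183, 174 and 186 CPM against 177, 176 and 169 CPM, and the groups overlapped (log2 fold change 0.05, SE 0.0258, edgeR adjusted p = 0.109). It passed as higher without IL-10-producing replicate 2 (adjusted p = 0.0118). Adam17, which releases TNF, held 99.8, 108 and 104 CPM against 105, 107 and 104 CPM and overlapped too (log2 fold change -0.02, SE 0.0283, edgeR adjusted p = 0.642). Among those that fell, Adam12, a protease of mesenchymal cells with a secreted form, held 27.5, 25.4 and 23.7 CPM against 33.7, 33.0 and 35.6 CPM, 1.33-fold lower (log2 fold change -0.42, SE 0.0505, edgeR adjusted p = 2.77e-07). Adam9 was lower by less, at 74.3 ± 1.66 against 79.3 ± 2.49 CPM (edgeR adjusted p = 0.0179), and the call was lost without IL-10-producing replicate 1 (0.109) or IL-10-negative replicate 3 (0.13). Adam1a, a gene of the testis, stood at 2.29 ± 0.138 against 3.15 ± 0.447 CPM (edgeR adjusted p = 0.0152), and the call was lost without IL-10-producing replicate 2 (0.0551) or IL-10-negative replicate 3 (0.115). On the same strand the gene model Gm42878 shares 63.7% of the exon bases of Adam1a and Mapkapk5 shares 24.0%, so its value is uncertain. Tmem116, on the opposite strand, shares 11.3%.

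Proteins that traffic or activate ADAMs were measured as a list of 13, with 10 tested, 1 higher and 3 lower (10% and 30%, beside 17.1% and 18.6% of all genes; median log2 fold change -0.07; 1 was lower in DESeq2 or without IL-10-negative replicate 2, and 2 were higher without IL-10-producing replicate 3). Furin, the convertase that removes the inhibitory prodomain of ADAMs and of membrane-type MMPs, fell from 2505 ± 13.8 to 2106 ± 23.6 CPM (log2 fold change -0.25, edgeR adjusted p = 1.42e-12). Frmd8, which stabilises the iRhom and ADAM17 complex, rose from 134 ± 3.59 to 148 ± 2.41 CPM (edgeR adjusted p = 6.65e-05). Tspan17, a tetraspanin that escorts ADAM10, stood at 9.25 ± 0.951 against 10.9 ± 0.458 CPM (edgeR adjusted p = 0.0246), a call lost in DESeq2 (0.0664) and without IL-10-producing replicate 3 (0.16), IL-10-negative replicate 1 (0.0732) or 2 (0.0829).

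Of 28 genes for surface proteins known to be shed by ADAM10 or ADAM17, 25 were tested, 4 were higher, 14 were lower and 7 did not pass (16% higher and 56% lower, beside 17.1% and 18.6% of all genes; median log2 fold change -0.41). The list holds the members Cdh1 and Cdh2. Among those with the smallest p-values were Il1r2, the decoy receptor for IL-1, which rose from 242 ± 5.19 to 445 ± 3.92 CPM (edgeR adjusted p = 5.75e-21), and Kit, which fell from 164 ± 1.62 to 84.6 ± 1.02 CPM (edgeR adjusted p = 3.81e-20). Summed T-cell markers and summed granulocyte, basophil and mast cell markers were reduced as well, as given above, and their part was not tested.

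**Figure D2:**
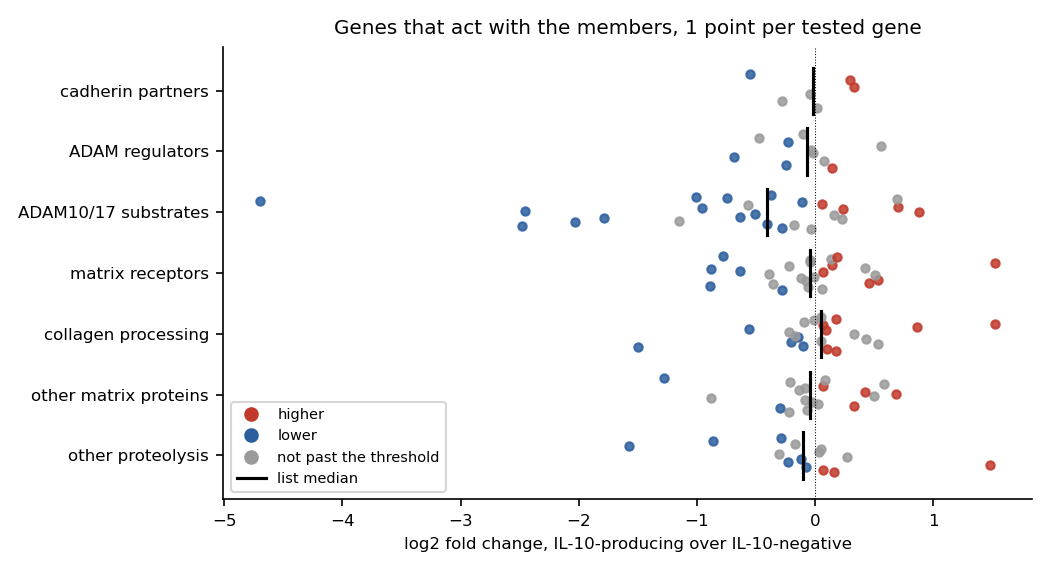
Log2 fold changes (IL-10-producing over IL-10-negative) of the tested genes in 7 lists of genes that act with the members, 1 point per gene, coloured by the call, with the median of each list as a bar. The median of the ADAM10 and ADAM17 substrates lies at -0.41, and those of the other 6 lists between -0.10 and 0.05.

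Among MMPs, 18 were members, 11 were tested, 2 were higher, 2 were lower and 7 did not pass (all genes: 17.1% higher, 18.6% lower). Mmp12, the elastase of macrophages (ENSMUSG00000049723.14, chromosome 9, 7344381 to 7369499), had 49, 40 and 43 counts in IL-10-producing replicates 1, 2 and 3 and 0 counts in each IL-10-negative library. This is 0.911, 0.584 and 0.920 CPM against 0, a low level present in every library of one population only. With the floor of 3 counts over the whole IL-10-negative group it was at least 43.4-fold higher (edgeR adjusted p = 1.63e-08). The macrophage, monocyte and dendritic cell list of 15 markers, 10 of which have a row, summed to 13.3 to 13.7 against 12.3 to 14.2 CPM. Of 8 tested, 2 were higher and 3 lower (all genes: 17.1% higher, 18.6% lower). Adgre1, Csf1r and Mrc1 fell from 0.656 to 0.193, from 0.882 to 0.218 and from 0.701 to 0.144 CPM. Chil3 and Cd68 rose from 5.34 to 6.61 and from 3.87 to 4.85 CPM, and Lyz2 did not pass, at 0.675 against 0.553 CPM.

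Mmp10, stromelysin-2, which cuts many matrix proteins (ENSMUSG00000047562.3, chromosome 9, 7502352 to 7510240), begins 132.9 kb after the end of Mmp12. It held 8.25, 9.03 and 9.45 CPM against 6.20, 7.13 and 6.01 CPM. The groups did not overlap, and it was 1.38-fold higher in IL-10-producing cells (log2 fold change 0.46, SE 0.0874, edgeR adjusted p = 0.000129). The other 3 members of the cluster, Mmp13, Mmp8 and Mmp7, spread with these over 427.1 kb, did not reach the filter. They stood at 0.0480 against 0.0114, 0.0974 against 0.0479 and 0.131 against 0.0595 CPM, so the promoters of Mmp13 and Mmp7 printed above belong to genes with at most 10 counts in any library.

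Both MMPs that fell are anchored in the membrane. Mmp25, a lipid-anchored protease known from neutrophils (ENSMUSG00000023903.7, chromosome 17, 23629458 to 23645269), had the highest level of the MMPs per kilobase of exon in both populations (6.75 and 9.69 CPM per kb). It held 37.1, 36.0 and 34.4 CPM against 51.5, 50.2 and 52.4 CPM. Its groups lay well apart, 1.43-fold lower in IL-10-producing cells (log2 fold change -0.52, SE 0.0386, edgeR adjusted p = 5.28e-11). The granulocyte, basophil and mast cell list fell too (11 of 12 tested lower, 0 higher), and its part was not tested. In that list the neutrophil granule genes Mpo, Elane and Prtn3 fell from 30.5 to 0.954, from 4.15 to 0.209 and from 3.85 to 0.260 CPM. Other neutrophil genes of the list were near the floor in both populations (IL-10-producing libraries first). Ltf did not pass, at 0.203 against 0.342 CPM, and S100a9 was lower, at 0.228 against 0.456 CPM. Camp (0.0257 against 0.0346 CPM) and S100a8 (0.0806 against 0.215 CPM) were below the filter. The neutrophil granule proteases Mmp8 and Mmp9 stood at 0.0974 and 0.233 CPM in IL-10-producing and at 0.0479 and 0.372 CPM in IL-10-negative cells. Mmp8 was below the filter and Mmp9 did not pass. Mmp16, a transmembrane MMP, stood at 1.89 ± 0.0138 against 2.88 ± 0.360 CPM and was lower (log2 fold change -0.61, SE 0.151, edgeR adjusted p = 0.00225). The gelatinase Mmp2 and the collagenase activator Mmp14, both typical of fibroblasts, stood at 0.103 against 0.221 and 0.161 against 0.303 CPM.

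The inhibitors of these proteases were scarce. Timp2, which also takes part in activating Mmp2, was the only one of 3 TIMPs to pass the filter, with 0.799, 0.759 and 0.749 CPM against 1.139, 1.66 and 1.12 CPM, 1.70-fold lower in IL-10-producing cells (log2 fold change -0.76, SE 0.236, edgeR adjusted p = 0.0125). IL-10-negative replicate 2 was the highest, and without it the adjusted p was 0.118. Timp1 and Timp3 had 5 to 12 and 3 to 19 counts per library.

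Of 12 ADAMTS proteases, 4 were tested by edgeR, 0 were higher, 2 were lower and 2 did not pass (all genes: 17.1% higher, 18.6% lower). With 4 genes, 0 higher cannot be told apart from that share. At an unadjusted p under 0.05, and in DESeq2, 0 were higher, while Adamts3 passed as higher without IL-10-negative replicate 1 (adjusted p = 0.0382). Adamts10, a protease of fibrillin microfibrils (chromosome 17, 33524204 to 33553782), was the only one above 5 CPM, with 37.6, 33.9 and 36.4 CPM against 41.5, 40.6 and 39.5 CPM (log2 fold change -0.18, SE 0.0429, edgeR adjusted p = 0.00189). The groups did not overlap. Adamts6 stood at 1.43 ± 0.229 against 1.95 ± 0.0879 CPM with an edgeR adjusted p of 0.0493, a call lost in DESeq2 (0.117), with DESeq2 size factors (0.0508), without the filter (0.052), with the replicate block (0.0576) and without any of 5 of the 6 libraries (from 0.0651 to 0.236), IL-10-producing replicate 3 being the exception. Adamts14, one of the proteases that trim procollagen, was below the filter with 0 counts in all IL-10-producing libraries and 13, 8 and 11 counts in the IL-10-negative ones, at least 10.8-fold lower by the floor of 3 counts over the group. It was singled out after its values were seen. Where the filter let it in, it passed as lower, with an adjusted p of 0.000457 in edgeR without the filter and 0.000294 in DESeq2.

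Laminins are trimers of an alpha, a beta and a gamma chain. Of 8 chains, 5 were tested, 0 were higher, 1 was lower and 4 did not pass (all genes: 17.1% higher, 18.6% lower). With 5 genes, 0 higher cannot be told apart from that share. At an unadjusted p under 0.05 in edgeR, and in DESeq2, 0 were higher. Lama5, the alpha chain of laminins that line blood vessels (ENSMUSG00000015647.9, chromosome 2, 180176373 to 180225859), held 144, 142 and 145 CPM against 152, 152 and 154 CPM. The groups did not overlap, although the difference was small (log2 fold change -0.09, SE 0.0228, edgeR adjusted p = 0.00391). Lamc1, the common gamma chain (chromosome 1, 153218922 to 153332786), held 161, 163 and 156 CPM against 157, 162 and 169 CPM and did not pass (log2 fold change -0.02, SE 0.0263, edgeR adjusted p = 0.555). Per kilobase of exon, the level of Lamc1 (19.4 against 19.7 CPM) exceeded that of Lama5 (12.6 against 13.4 CPM). The beta chains measured here were far lower, with Lamb3 at 0.450 against 0.461 and Lamb2 at 0.0268 against 0.0236 CPM per kilobase. Lamb1 could not be measured here, since the count table held no protein-coding row of that name.

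Collagen chains were the largest family. Of 27, 24 stayed under 1 CPM in the higher group and only Col18a1 exceeded 5 CPM. Of 17 tested, 2 were higher, 1 was lower and 14 did not pass (all genes: 17.1% higher, 18.6% lower). Col18a1, whose protein lies in basement membranes and gives rise to endostatin (ENSMUSG00000001435.15, chromosome 10, 77052178 to 77166548), held 152, 150 and 147 CPM against 137, 136 and 137 CPM. Its groups did not overlap, and it was 1.10-fold higher in IL-10-producing cells (log2 fold change 0.13, SE 0.0234, edgeR adjusted p = 6.41e-05). Col27a1, a minor fibrillar collagen of cartilage, stood at 2.18 ± 0.248 against 1.44 ± 0.201 CPM (log2 fold change 0.60, SE 0.175, edgeR adjusted p = 0.00889), a call lost without IL-10-negative replicate 3 (0.0513). Col11a2, a fibrillar chain known from cartilage, held 1.47, 1.77 and 1.52 CPM against 3.09, 2.53 and 2.67 CPM, 1.73-fold lower (log2 fold change -0.79, SE 0.159, edgeR adjusted p = 0.000282).

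The chains that mark fibroblasts and basement membrane were low. Col1a1 and Col1a2, which form type I collagen, stood at 0.662 against 0.492 and 0.0431 against 0.0529 CPM, and Col4a1 and Col4a2, the main type IV chains, at 0.276 against 0.225 and 0.695 against 0.481 CPM. Col1a2 was below the filter, and the other 3 chains did not pass. Of 14 fibroblast and smooth muscle markers, 8 have a row and 5 were tested, of which 0 rose and 1 fell (Thy1). Without Thy1, which ILC2s carry and which was set aside after its values were seen, their summed level was 4.72 to 5.94 against 4.92 to 5.31 CPM. Most of that sum came from Pdgfrb (2.55 against 2.47 CPM) and Tagln (2.00 against 1.71 CPM), while Pdgfra stood at 0.0062 and 0.0609 CPM.

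**Figure D3:**
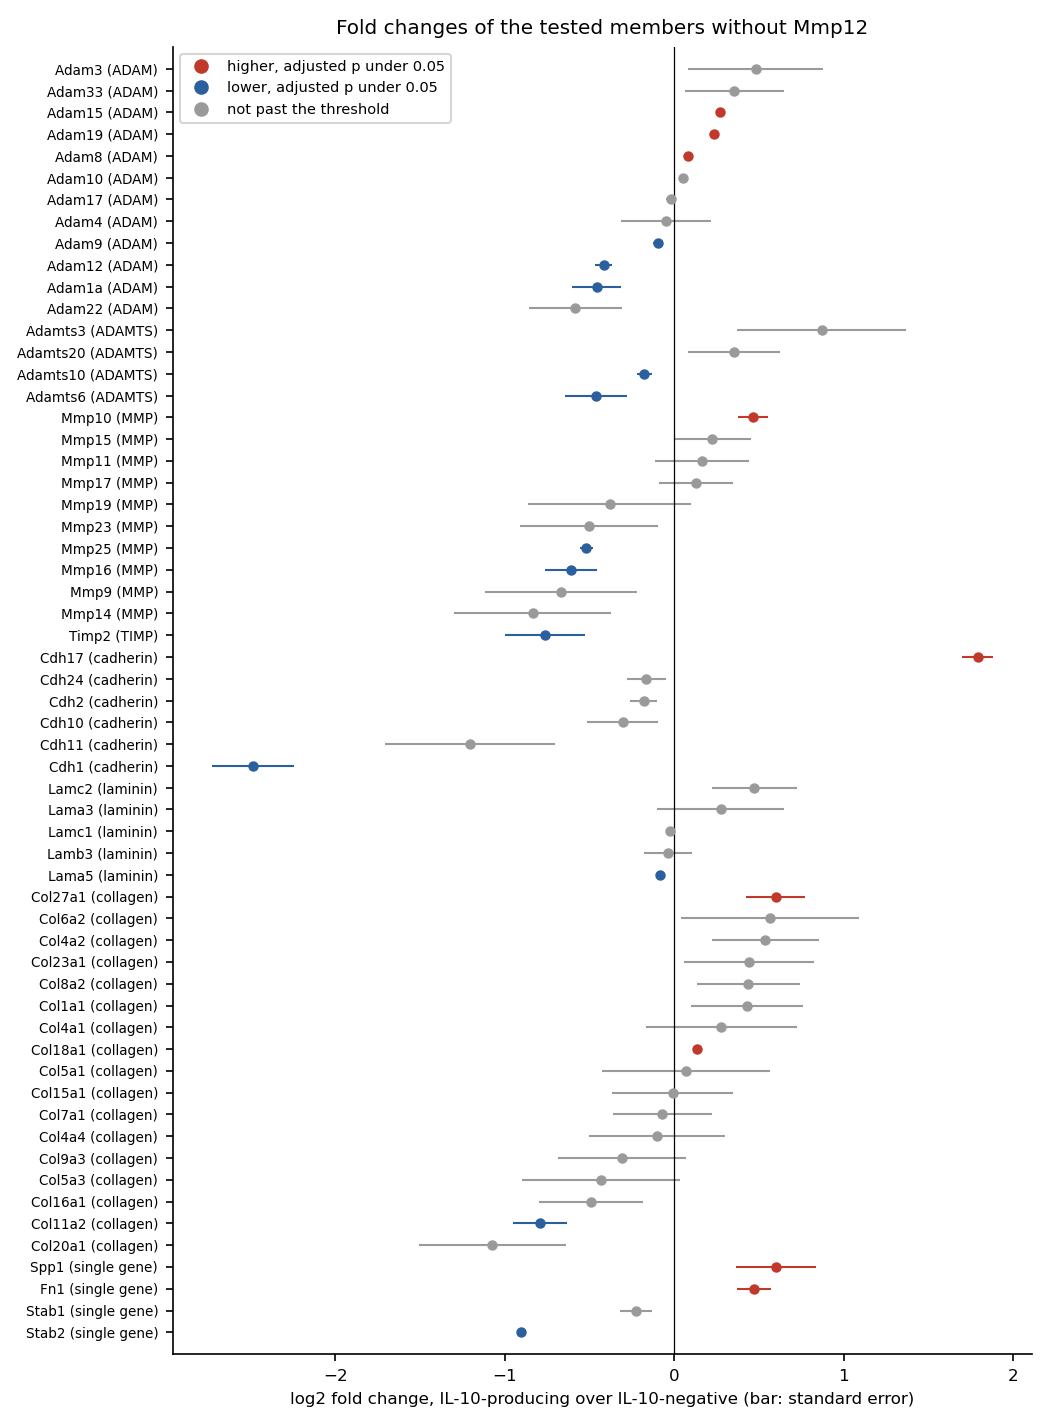
Log2 fold changes (IL-10-producing over IL-10-negative) of 59 tested members with their standard errors, grouped by family and coloured by the call; Mmp12, with 0 counts in one population, is left out. Cdh17 (1.79) and Cdh1 (-2.48) lie farthest from 0 among the called members shown, and Stab2 (-0.90) has a short bar.

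Enzymes and chaperones of collagen assembly were measured as a list of 28, with 21 tested, 7 higher and 5 lower (33.3% and 23.8%, beside 17.1% and 18.6% of all genes; median log2 fold change 0.05; without a TMM factor 4 were higher). P4ha3 and P4ha2 encode catalytic subunits of prolyl 4-hydroxylase, which lets the collagen helix form, and went opposite ways, P4ha3 from 4.01 ± 0.146 to 7.27 ± 0.386 CPM (edgeR adjusted p = 6.49e-08) and P4ha2 from 10.0 ± 0.279 to 6.80 ± 0.310 CPM (edgeR adjusted p = 1.85e-06). Pcolce2, an enhancer of procollagen trimming, rose from 0.645 ± 0.129 to 1.86 ± 0.332 CPM (edgeR adjusted p = 7.32e-06).

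Other matrix proteins, a list of 35 of which 18 were tested, had 4 higher and 2 lower (22.2% and 11.1%, beside 17.1% and 18.6% of all genes; median log2 fold change -0.05; 2 were higher in DESeq2, without a TMM factor or without IL-10-negative replicate 3). Nid1, nidogen, the link between laminin and type IV collagen, rose from 9.26 ± 0.112 to 14.9 ± 0.476 CPM (edgeR adjusted p = 4.84e-09). Ecm1, a secreted glycoprotein, fell from 118 ± 1.85 to 95.5 ± 2.16 CPM (edgeR adjusted p = 1.07e-09), and Vcan, versican, from 1.62 ± 0.515 to 0.667 ± 0.212 CPM (edgeR adjusted p = 0.00037). Among 14 tested genes of other matrix proteolysis, 3 were higher and 6 lower (21.4% and 42.9%, beside the same shares of all genes; median log2 fold change -0.10; 1 was higher without IL-10-negative replicate 3). Bsg, basigin, an inducer of MMPs, rose from 362 ± 1.76 to 404 ± 8.81 CPM (edgeR adjusted p = 4.9e-07), Ctsd, a lysosomal protease, fell from 641 ± 4.40 to 605 ± 14.4 CPM (edgeR adjusted p = 0.00128), and Plaur, the urokinase receptor, fell from 0.940 ± 0.112 to 0.314 ± 0.0073 CPM (edgeR adjusted p = 0.000169).

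Receptors for these matrix proteins had 6 higher and 5 lower of 24 tested (25% and 20.8%, beside 17.1% and 18.6% of all genes; median log2 fold change -0.04). Itgb3, the integrin chain that binds fibronectin and osteopontin with an alpha partner, fell from 712 ± 9.55 to 386 ± 5.34 CPM (log2 fold change -0.88, edgeR adjusted p = 8.07e-22). Itgb1, the chain shared by the collagen and laminin receptors, fell from 66.9 ± 1.71 to 43.1 ± 1.63 CPM (edgeR adjusted p = 3.17e-13). Itga4, which binds fibronectin, rose from 168 ± 5.29 to 243 ± 5.72 CPM (edgeR adjusted p = 4.44e-15).

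Summed by family, each library of one population lay on the same side of every library of the other in all 8 groups of members. Among single genes tested, 45.2% had groups that did not overlap. ADAMs summed to 1734 ± 16.3 against 1585 ± 6.95 CPM, collagens to 160 ± 2.10 against 148 ± 1.58 CPM, and cadherins to 26.8 ± 1.16 against 21.9 ± 1.05 CPM. The sums of MMPs (51.9 ± 0.567 against 65.3 ± 0.210 CPM), ADAMTS proteases (39.1 ± 1.92 against 44.3 ± 1.44 CPM), laminins (309 ± 1.93 against 320 ± 7.26 CPM) and TIMPs (0.953 ± 0.0368 against 1.66 ± 0.247 CPM) were lower in IL-10-producing libraries. These sums rest on few genes, such as Col18a1 for the collagens and Mmp25 for the MMPs. The direction of the cadherin sum turned on Cdh17 (12.2 against 3.51 CPM), whose difference exceeded that of the sum. The family sums do not stand for a shift of most members, since 14 of 17 tested collagens did not pass. All members together came to 2641 ± 16 against 2769 ± 14.7 CPM, and without Stab2 to 2336 ± 18.6 against 2198 ± 11 CPM, so the direction of the total turned on that gene.

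**Figure D4:**
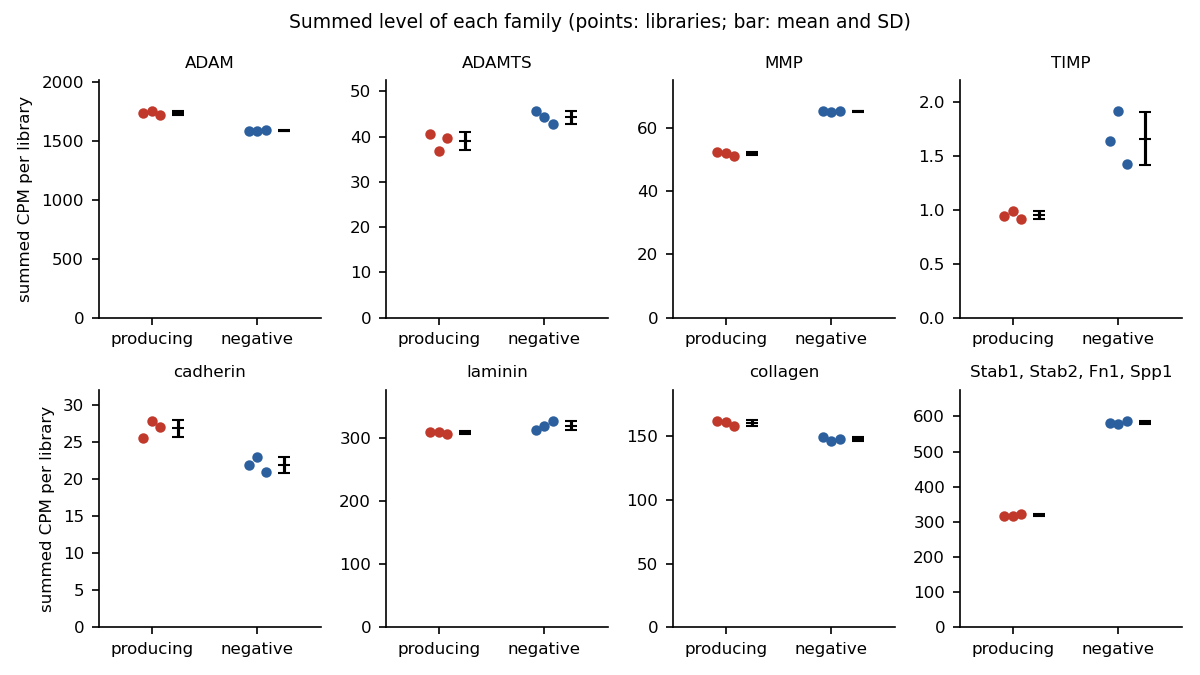
Summed TMM-scaled CPM of each family of members in the 3 IL-10-producing (red) and 3 IL-10-negative (blue) libraries, with the mean and SD as a black bar beside them; each axis starts at 0. The panel of the 4 single genes shows the largest difference in CPM, 319 against 583, most of which is Stab2.

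The 38 members below the filter reached at most 0.221 CPM in the higher group. In 6 of them (15.8%) the groups did not overlap, beside 15.8% of all genes below the filter and 45.2% of those tested. Of the tested members, 30 (50%) did not overlap. The 6 were Adamts14, Adam11, Col12a1, Lama4 and Timp1, lower in IL-10-producing cells, and Col6a1, higher. Without the filter, Lama4 (1, 3 and 0 against 9, 8 and 11 counts) and Col12a1 (0, 2 and 3 against 13, 14 and 6 counts) passed as lower beside Adamts14, with edgeR adjusted p of 0.0192 and 0.0196. Col6a1 had 4, 4 and 2 against 0, 1 and 0 counts.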

How the data were processed

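The tools named per the submitters' processing notes are STAR 2.5.3a, bcl2fastq 2.17.1.14 and Partek, and the build is mm10. The authors deposited gene-level estimated counts without scaling (50.4% of values were not whole). They also deposited normalized signal for 13824 genes, in which each value is the estimated count plus 1 times a factor per library. The strand setting and annotation release are not given in the sources used here. Identifiers matched GENCODE M21 with their version for 94 members and without it for 4; exon lengths are the union of its exons, and listed stops less 1 gave the positions.

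After rounding to integers, the counts entered edgeR 4.0.16 (R 4.3.3), quasi-likelihood F test, on all 6 libraries, with group as the only term, TMM factors, filterByExpr at its defaults (minimum count 10, total 15) and Benjamini-Hochberg adjustment over 16654 genes. Every gene-level adjusted p comes from this test unless another is named. Levels are CPM, mean ± SD over 3 libraries. The test was tried on simulated data. Members and lists were chosen with earlier results of these data known, so no list or family is given a p of its own. Named genes were members at 5 CPM or more, the 10 largest changes in each direction among called, non-overlapping members at 0.5 CPM or more, and 3 genes per accompanying list, of which 1 is not reported here. The cell type lists are described by summed levels and by counts of called genes. B and plasma cell markers summed to 50.2 to 51.8 against 39.0 to 40.0 CPM, with 3 of 8 tested higher and 4 lower. Protein sequences were not analysed here. Alternatives were DESeq2 1.42.0, its size factors, library size only, 2 other filters (none, and at least 50 counts in 3 libraries), limma-voom (limma 3.58.1), limma on log2 of the normalized values plus 1, the replicate block and leaving out each library. Counts without molecular identifiers are not independent molecules, so floors cover counting error only.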

Additional observations from a re-analysis of the deposited data

How the results depend on the processing

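The numbers of members higher and lower (10 and 12) stayed within 8 to 10 and 11 to 14 under all 14 alternatives: 9 and 14 in DESeq2, 9 and 13 in limma-voom, 9 and 12 with the authors' normalized values (40 members tested) and 9 and 12 with at least 50 counts in 3 libraries (32 members tested). Leaving out a library gave 8 to 10 and 11 to 14. Of the 22 called members, 17 to 21 were also called under each alternative. No called gene among those named changed sign; of the uncalled ones, Adam17 (without IL-10-producing replicate 1) and Lamc1 (without IL-10-negative replicate 3) did, at log2 fold changes of 0.011 and 0.0071. Of 27 named members, 17 kept their side of the threshold under every alternative that could test them; the 10 exceptions are Adam1a, Adam8, Adam9, Adam10, Adamts6, Cdh2, Col27a1, Spp1, Stab1 and Timp2, whose values stand in the report; the cause was not tested. With the replicate number as a block, 9 members were higher and 11 lower; among named genes the calls of Spp1 and Adamts6 were lost (adjusted p = 0.0545 and 0.0576). Same-numbered libraries did not deviate together (correlations from -0.0402 to -0.0177), so the numbers were not taken as pairs. The 38 members below the filter reached at most 0.221 CPM, where single counts weigh heavily.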
